A study of Mus musculus with 6 samples.

Results

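The 43 genes described here encode enzymes that build, lengthen, desaturate, activate or burn fatty acids, and they were followed through an RNA immunoprecipitation experiment (RIP-seq) on cultured mouse germ stem cells. They were chosen by name, with earlier results of these data known, and sorted by role. The roles were synthesis (6), elongation and desaturation (13), activation (5) and oxidation (19). Of the 22564 protein-coding genes in the table, 40 were found under their current symbol, and Hacd1, Hacd2 and Hacd3 under the older symbols Ptpla, Ptplb and Ptplad1. RNA was recovered with an antibody against IGF2BP1 (IGF2BP1 RIP, 2 libraries), with a control IgG (IgG RIP, 2 libraries), or taken without any pull-down (input, 2 libraries). All 3 groups came from cultured germ stem cells grown in a StemPro-34 and MEM-alpha based medium with GDNF and FGF2, each at 10 ng/ml, and no label names a genotype, a treatment or an age that differs between them. Whether paired libraries stem from different cultures is not labelled, and the p-values below therefore reflect library-to-library spread alone. In lists of values, IGF2BP1 and IgG stand for the pull-downs made with each antibody.

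Fatty acid synthesis starts in the cytosol, where acetyl-CoA carboxylase makes malonyl-CoA and fatty acid synthase joins malonyl units into palmitate. Palmitate is then lengthened at the endoplasmic reticulum in a repeated cycle of condensation, reduction, dehydration and a final reduction, and double bonds are put in by desaturases. Free fatty acids are coupled to coenzyme A before use, and long chains enter mitochondria by way of carnitine, where a repeated cycle of dehydrogenation, hydration, dehydrogenation and thiolysis shortens them. IGF2BP1 is an RNA-binding protein known for binding messenger RNAs and for protecting many of them from decay.

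Depth on protein-coding genes was 2793425 and 2836942 fragments for IGF2BP1, 2558673 and 2723451 for IgG, and 1639251 and 1693165 for input. The IgG RIP libraries stood apart, because they differed from each other far more than those of the other groups did. Their biological coefficient of variation was 50.4%, against 7.76% in IGF2BP1 RIP and 6.76% in input. The fatty acid genes showed the same. Gaps were taken on CPM (fragments brought to a common library size by TMM) with 1 added, which shrinks gaps at low levels. On that scale, 9 of the 40 tested genes were over 2-fold apart between the IgG RIP libraries. In IGF2BP1 RIP there were 0, and in input 1 (Mecr). Fold changes of named genes over IgG RIP are therefore also given without its library 1 and without its library 2, in that order. With 1 IgG RIP library left, the test takes its spread from the other groups alone, so no adjusted p is given there. The summed level of 10 germ stem cell markers was 2942 to 3382 CPM over the 6 libraries, with 9 of them present in each. Markers of other cells were present too, with 8 fibroblast genes at 2153 to 2651 CPM in sum and 7 macrophage genes at 3001 to 3534 CPM. Adipocyte markers, whose cells are rich in these enzymes, summed to 19.4 to 45.3 CPM, with Plin1 at 0 in every library. Most of that sum was Fabp4, at 17.3 to 44.0 CPM, and only 1 of the 5 markers had fragments in every library. Of 8 Sertoli and Leydig markers, Amh, Fshr, Cyp17a1 and Cyp11a1 were at 0 in every library, and the list summed to 34.9 to 55.9 CPM. The part of fibroblast and macrophage RNA in the results below was not tested, and in such bulk RNA fewer cells of a type and less RNA per cell cannot be told apart.

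Per transcript length, elongation and desaturation had the highest median level of the 4 roles. In input the median FPKM (fragments per kilobase of transcript, as deposited) was 11.4 over the 13 elongation and desaturation genes, 7.34 over activation, 5.86 over oxidation and 2.97 over synthesis. The median over all 43 was 6.67 FPKM, close to the 6.75 FPKM of all 12053 genes tested. Hsd17b12, the ketoacyl-CoA reductase of the elongation cycle, had the highest level at 66.2 ± 1.77 FPKM (SD, n = 2). Acsl3, an acyl-CoA synthetase of lipid droplets and the endoplasmic reticulum, followed at 52.6 ± 10.8 FPKM, and its libraries, at 44.9 and 60.2 FPKM, lay below those of Hsd17b12. Elovl5, which elongates polyunsaturated chains, stood at 37.4 ± 0.119 FPKM, and Hadha, the alpha subunit of the mitochondrial trifunctional protein, at 30.5 FPKM. In all, 16 of the 43 exceeded 10 FPKM. The cytosolic synthesis enzymes Acaca and Fasn were at 14.6 and 12.9 FPKM, with overlapping libraries. At the low end Elovl7, Acsl6 and Ehhadh had at most 8 fragments in any library and were not tested, which left 40 genes that passed the filter on low counts.

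**Figure D1:**
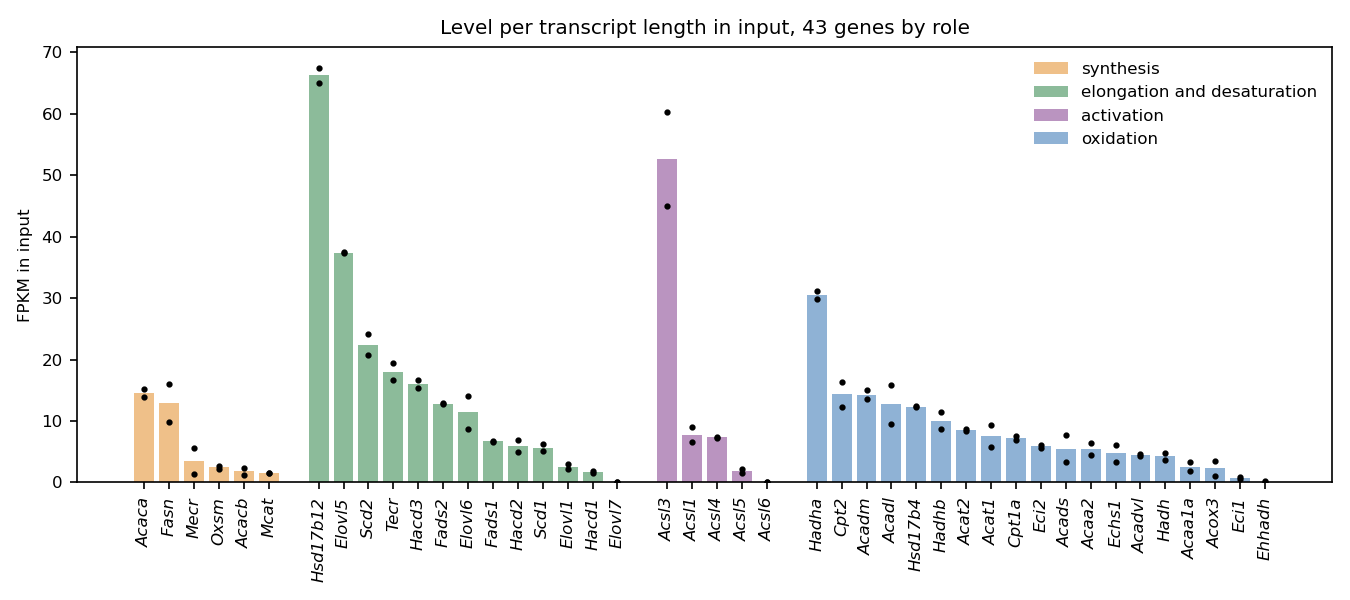
Level per transcript length in input, in FPKM, of the 43 fatty acid genes, ordered within each role. Bars are the mean of 2 libraries and points the libraries, and Hsd17b12 at 66.2 and Acsl3 at 52.6 FPKM stand above the rest.

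Against IgG RIP, 4 of the 40 tested genes were higher in IGF2BP1 RIP and 0 were lower (edgeR quasi-likelihood test on all 6 libraries, adjusted p under 0.05 over 12053 genes). Over all genes, 3.29% were higher and 3.78% lower. The 4 were the elongation genes Elovl5 and Hsd17b12 and the oxidation genes Acads and Hadha. At an unadjusted p under 0.05 the counts were 12 higher and 2 lower, where 12.3% and 13% of all genes passed. DESeq2 also called 4 higher and 0 lower, with Acsl3 in place of Hsd17b12, and 3% and 3.73% of all genes. The median log2 fold change was 0.48 over the 40 genes and -0.01 over all genes tested. It was 0.48 over the 12 elongation and desaturation genes, 0.52 over the 18 oxidation genes, of which 15 lay above 0, 0.25 over the 4 activation genes and -0.30 over the 6 synthesis genes. The libraries of the 2 pull-downs did not overlap for 23 of the 40 genes with IGF2BP1 RIP above and for 4 with it below, against 27.4% and 24.7% of all genes.

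These calls depended on the model. The test on all 6 libraries shares 1 estimate of spread among the 3 groups, with a biological coefficient of variation of 25.2%. That is below the 50.4% of IgG RIP and above the 7.76% of IGF2BP1 RIP and 6.76% of input. Its p-values can therefore be too small for comparisons with IgG RIP and too large for IGF2BP1 RIP against input. Counts with 1 IgG RIP library left out, here and below, take no account of the spread within IgG RIP. With the IGF2BP1 and IgG libraries tested alone, 0 of the 40 genes were called by edgeR, and over all genes 0.315% were higher and 0.879% lower. At an unadjusted p under 0.05 those groups gave 11 higher and 2 lower, against 8.52% and 9.89% of all genes. Leaving out the IgG RIP library 1 gave 15 higher and 7 lower, where 24.7% and 22.2% of all genes were called. Leaving out the IgG RIP library 2 gave 16 and 4, with 23.2% and 21.3% of all genes called. Leaving out either IGF2BP1 RIP library or either input library gave 0 calls among the 40, and few over all genes. Higher were 0.083% and 0.0664% without the IGF2BP1 RIP library 1 or 2 and 0.307% without either input library, and lower were 0.324%, 0.315%, 0.879% and 0.896%.

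Against input, 2 of the 40 genes, Fasn and Acaca, were higher in IGF2BP1 RIP and 0 were lower, where 2.21% of all genes were higher and 3.76% lower (edgeR, all 6 libraries). The unadjusted counts were 10 higher and 0 lower, against 9.67% and 11.1% of all genes. DESeq2 called the same 2 genes, and 2.82% of all genes higher and 4.39% lower. With the IgG RIP libraries left out of the model, 13 of the 40 were higher and 4 lower, against 16.1% and 17.8% of all genes. The 13 were 3 synthesis genes (Fasn, Acaca, Acacb), 4 of elongation and desaturation (Elovl1, Tecr, Fads1, Fads2), 1 of activation (Acsl3) and 5 of oxidation (Cpt1a, Acadvl, Hadha, Acat2, Hsd17b4). The 4 lower were Oxsm, Hsd17b12, Acsl4 and Acsl5. Medians were 0.28 over all 40 genes, 0.52 over synthesis, 0.17 over elongation and desaturation, -0.15 over activation and 0.31 over oxidation, with 0.00 over all genes tested. Groups did not overlap for 21 genes with IGF2BP1 RIP above and 7 with it below, against 33.5% and 33.4% of all genes. Leaving out either IGF2BP1 RIP library or either input library from the model of 6 gave 0 calls among the 40. Over all genes, 0.0083% and 0.0332% were then higher without the IGF2BP1 RIP library 1 or 2 and 0.0166% and 0.0083% without the input library 1 or 2, and 0.158%, 0.249%, 0.116% and 0.166% were lower.

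Between the controls, 3 of the 40 genes were higher in IgG RIP than in input (Fasn, Acaca, Acacb) and 2 were lower (Elovl5, Hsd17b12), where 4.19% and 4.9% of all genes were called. At an unadjusted p under 0.05 there were 5 and 6, against 12.8% and 13.7% of all genes. DESeq2 called 2 higher and 2 lower, without Acacb, and 4.11% and 4.51% of all genes. With the 4 control libraries alone, 2 were higher (Fasn, Acaca) and 0 lower by edgeR, against 0.888% and 0.946% of all genes. Unadjusted, these were 3 and 3, against 9.85% and 9.54%. The median log2 fold change over the 40 genes was -0.13, and -0.002 over all genes tested. It was 0.40 over synthesis, -0.20 over elongation and desaturation, -0.31 over activation and -0.13 over oxidation. IgG RIP lay above input with no overlap for 10 genes and below it for 16, against 25.3% and 28.5% of all genes. Without the IgG RIP library 1 there were 6 higher and 12 lower (21.5% and 24.9% of all genes), and without library 2 there were 6 and 13 (19.7% and 23.7%). Without the input library 1 or 2 there were 0 calls, as over all genes (0% in either direction). Without the IGF2BP1 RIP library 1 or 2 none of the 40 was lower and 2 were higher, where 0.896% and 0.921% of all genes were lower and 0.813% and 0.846% higher. Each pair of these comparisons shares libraries, so their values are set side by side below and are not counted as separate support for each other.

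**Figure D2:**
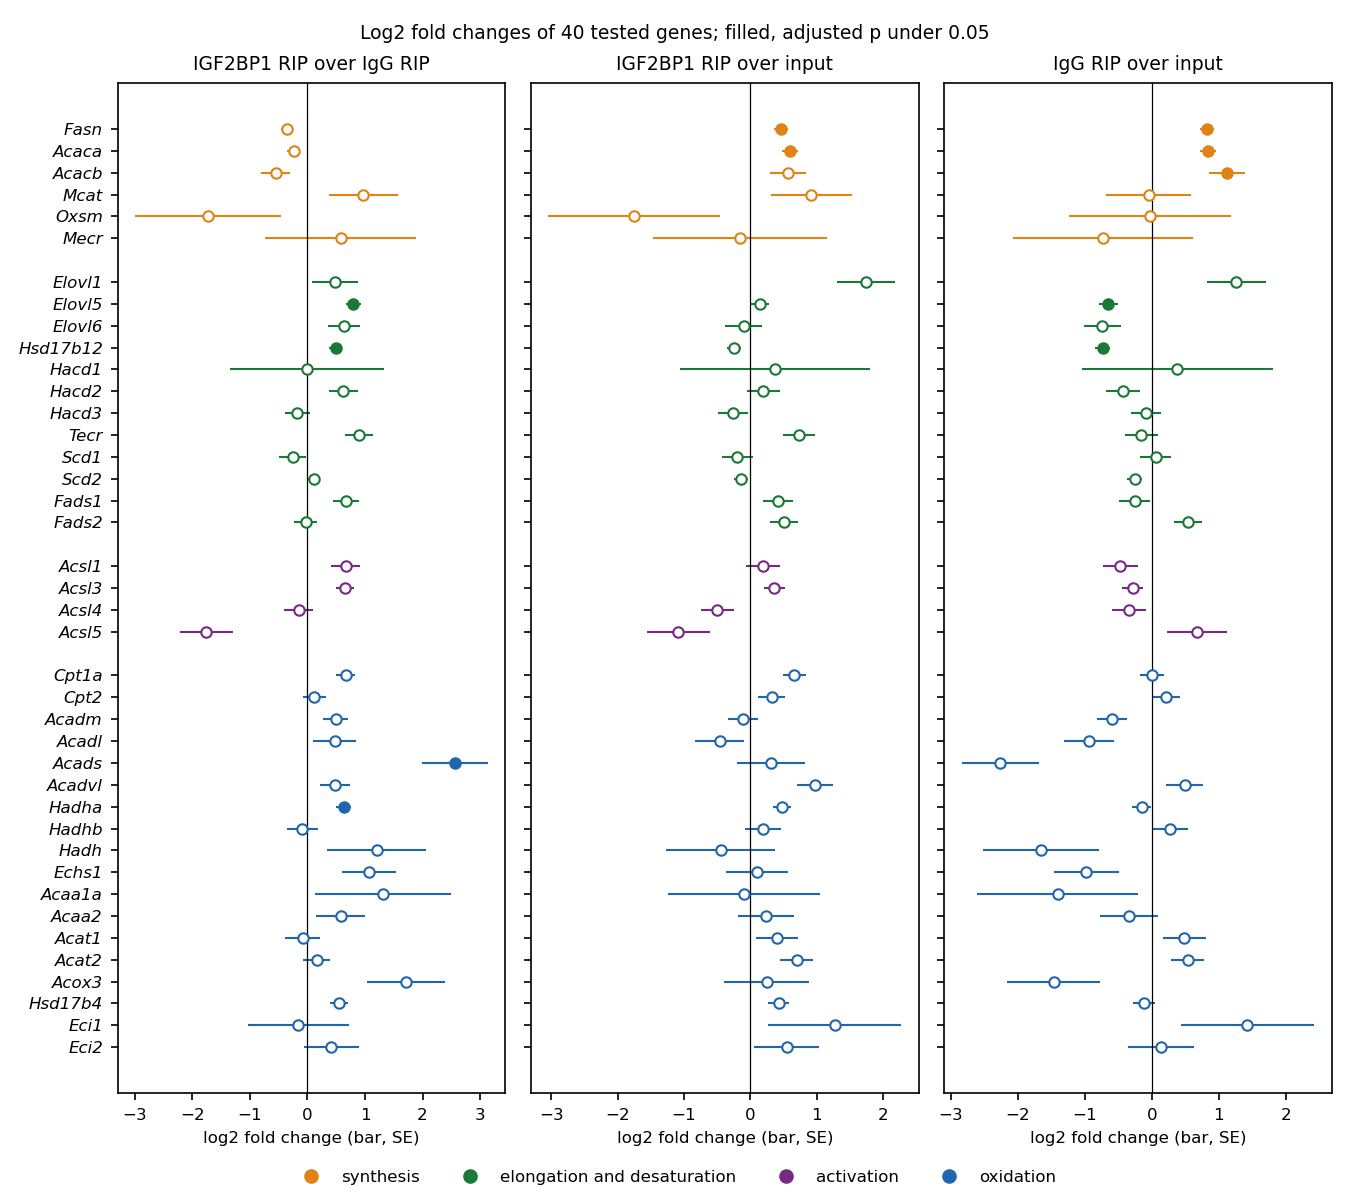
Log2 fold change of the 40 tested genes in the 3 comparisons, with bars for the SE and filled points for an adjusted p under 0.05 (edgeR, all 6 libraries). Fasn, Acaca and Acacb lie below 0 in the first panel and above it in the other panels, and most oxidation genes lie above 0 in the first panel.

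The summed level of the 6 synthesis genes was 588 and 559 CPM for IGF2BP1, 687 and 737 for IgG, and 398 and 415 for input. Its order was IgG RIP, IGF2BP1 RIP, input, with no overlap. The 13 elongation and desaturation genes summed to 1198 and 1244 CPM for IGF2BP1, 912 and 958 for IgG, and 1203 and 1227 for input, so that the IgG RIP libraries lay below the other 4. The oxidation sum was 874 and 911 CPM for IGF2BP1, 632 and 657 for IgG, and 698 and 675 for input. Here the IGF2BP1 RIP libraries lay above the others, as they did for the activation sum (413 and 460.1 CPM, against 339.5 and 303 for IgG and 378 and 402 for input). Sums follow the genes of most fragments, such as Fasn and Scd2.

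**Figure D3:**
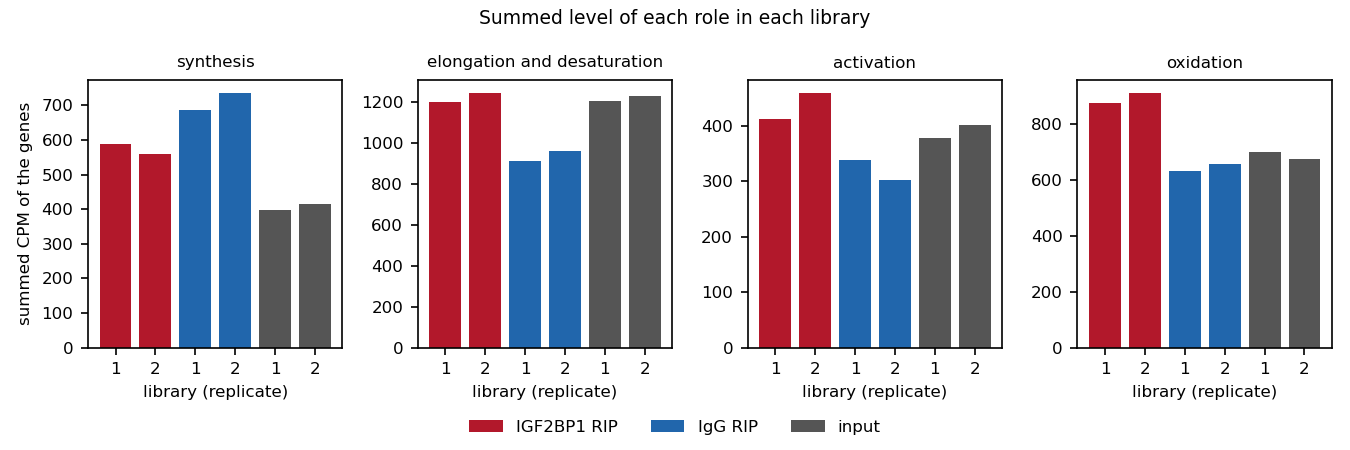
Summed CPM of the genes of each role in each of the 6 libraries (y axis from 0, a separate scale per panel). The synthesis sum is highest in the IgG RIP libraries (687 and 737 CPM), and the oxidation sum is highest in the IGF2BP1 RIP libraries (874 and 911 CPM).

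Among the synthesis genes, the 3 cytosolic enzymes shared 1 order, IgG RIP above IGF2BP1 RIP above input, while the 3 mitochondrial enzymes did not. Fasn (ENSMUSG00000025153, GRCm38 chromosome 11, 120805940 to 120824178) encodes fatty acid synthase. Its libraries read 308 and 314 CPM for IGF2BP1, 381 and 414 for IgG, and 208 and 242 for input. No group overlapped another, and the IGF2BP1 RIP libraries lay between the controls. The means were 311 ± 4.42, 398 ± 23.2 and 225 ± 23.5 CPM (SD, n = 2 each). Against input the log2 fold change was 0.47 ± 0.11 (SE, edgeR adjusted p = 0.0487) and against IgG RIP -0.36 ± 0.10 (edgeR adjusted p = 0.0832), so that only the first passed. The first had an adjusted p of 9.53e-05 with the IGF2BP1 and input libraries alone. Without the IgG RIP library 1 or 2, the difference from IgG RIP was -0.41 and -0.30. IgG RIP exceeded input by 0.82 ± 0.11 (edgeR adjusted p = 0.00797), and by 0.89 and 0.76 as an IgG RIP library was left out.

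Acaca (ENSMUSG00000020532, chromosome 11, 84129672 to 84401651) encodes acetyl-CoA carboxylase alpha, the cytosolic source of malonyl-CoA. It stood at 223 and 195 CPM for IGF2BP1, 235 and 259 for IgG, and 140.2 and 137 for input. The pull-downs lay well above input and the IgG RIP libraries highest, again with no overlap. Relative to input, the log2 fold change was 0.59 ± 0.12 in IGF2BP1 RIP (edgeR adjusted p = 0.0320, and 2.56e-05 with those groups alone) and 0.84 ± 0.12 in IgG RIP (edgeR adjusted p = 0.010). The difference between the pull-downs, -0.24 ± 0.11, did not pass (edgeR adjusted p = 0.238). That difference was -0.31 and -0.17 without the IgG RIP library 1 or 2. Its locus span is shared with Gm11437, which had 0 fragments in every library.

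Acacb (ENSMUSG00000042010, chromosome 5, 114146535 to 114250761) encodes the mitochondrial-surface form of the carboxylase, whose malonyl-CoA restrains the carnitine step of oxidation. Its libraries read 36.6 and 32.1 CPM for IGF2BP1, 45.8 and 54.9 for IgG, and 26.7 and 19.5 for input. The order of the groups was that of Fasn and Acaca, without overlap. IgG RIP exceeded input by 1.12 ± 0.27 (log2, edgeR adjusted p = 0.0445, and 0.129 with the controls alone). IGF2BP1 RIP differed from input by 0.57 ± 0.27 (edgeR adjusted p = 0.293, and 0.04998 with those groups alone) and from IgG RIP by -0.55 ± 0.25 (edgeR adjusted p = 0.230). Without the IgG RIP library 1 or 2 the latter was -0.68 and -0.41.

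The mitochondrial synthesis genes had few fragments. Mcat, the malonyl transferase of that pathway, had 12.4 and 10.6 CPM for IGF2BP1, 3.49 and 8.22 for IgG, and 6.20 and 5.92 for input. IGF2BP1 RIP lay above both controls, and no comparison passed. Oxsm, its ketoacyl synthase, read 1.78 and 2.47 CPM for IGF2BP1, 14.0 and 0.374 for IgG, and 7.44 and 7.11 for input. The IgG RIP libraries spanned the other 4, and IGF2BP1 RIP lay below input, at a log2 fold change of -1.75 (± 0.57 SE, edgeR adjusted p = 0.0206 with those groups alone, and 0.525 with all libraries). Oxsm shares its span with Ngly1. Mecr, the enoyl reductase, had 6.05 and 4.94 CPM for IGF2BP1, 7.37 and 0 for IgG, and 8.68 and 3.55 for input, so the groups overlapped in every comparison.

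**Figure D4:**
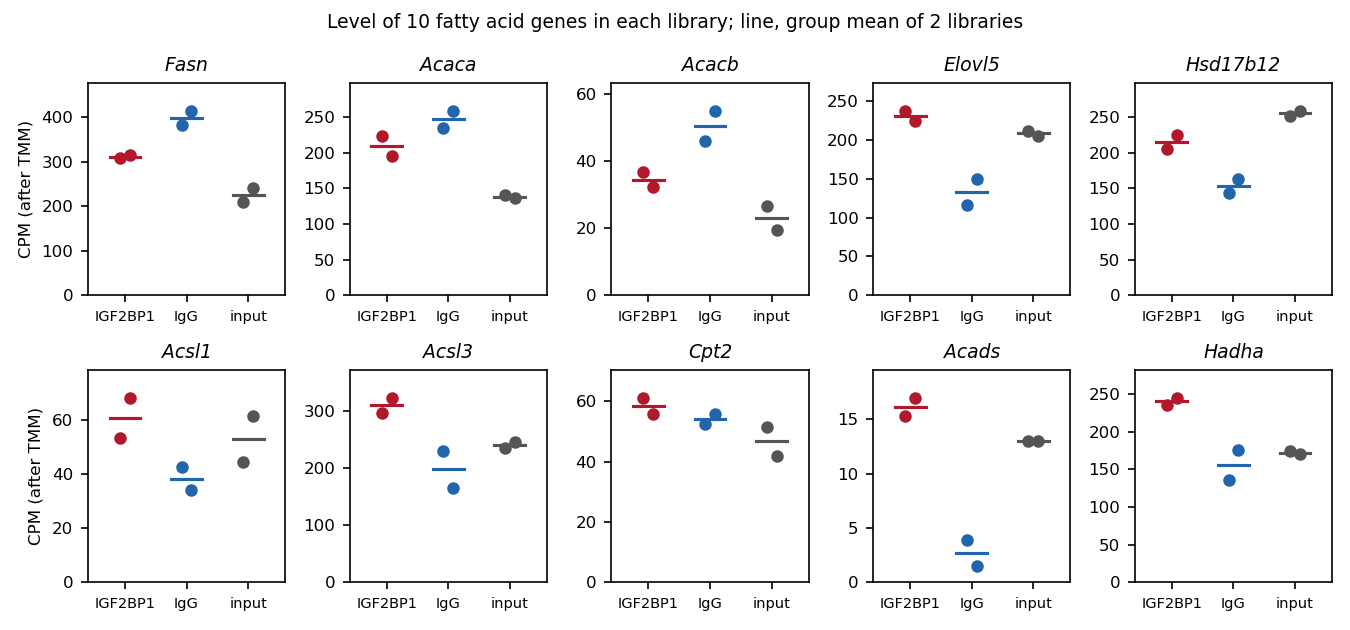
Level in CPM after TMM scaling (linear axes from 0) of 10 fatty acid genes in each library, with a line at each group mean of 2 libraries. Fasn, Acaca and Acacb are highest in IgG RIP, and Elovl5, Hsd17b12, Acsl3, Acads and Hadha are lowest there.

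Of the elongation and desaturation genes, Elovl5, Elovl6, Hsd17b12, Hacd2, Scd2 and Fads1 had both IgG RIP libraries below the other 4, and Elovl5 and Hsd17b12 passed a test. Elovl5 (ENSMUSG00000032349, chromosome 9, 77917364 to 77984519) had 238 and 224 CPM for IGF2BP1, 116 and 149.5 for IgG, and 211 and 206 for input. The IgG RIP libraries were far below the other 4, which lay within a narrow range. IGF2BP1 RIP exceeded IgG RIP by 0.80 ± 0.14 (edgeR adjusted p = 0.0202, and 0.0953 with those groups alone) and differed from input by 0.15 ± 0.14 (edgeR adjusted p = 0.633). The first difference was 0.63 without the IgG RIP library 1 and 1.00 without library 2. IgG RIP was lower than input, at -0.65 ± 0.14 (edgeR adjusted p = 0.0330, and 0.115 with the controls alone), or -0.47 and -0.85 as an IgG RIP library was left out.

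Hsd17b12 (ENSMUSG00000027195, chromosome 2, 94032689 to 94157964), the reductase introduced above, had 206 and 225 CPM for IGF2BP1, 144 and 163 for IgG, and 252 and 259 for input. Input was highest and IgG RIP lowest, with no overlap among the groups. IGF2BP1 RIP was higher than IgG RIP by 0.49 ± 0.11 (edgeR adjusted p = 0.0456). Without the IgG RIP library 1 or 2 it was 0.40 and 0.58. The call was lost with those groups alone (edgeR adjusted p = 0.152) and by DESeq2 (adjusted p = 0.0916). Against input the difference was -0.24 ± 0.11 (edgeR adjusted p = 0.275, and 0.0199 with those groups alone). IgG RIP was lower than input, at -0.73 ± 0.11 (edgeR adjusted p = 0.0123, and 0.0554 with the controls alone).

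The other genes of the elongation cycle did not pass with all 6 libraries. Tecr, which carries out the last reduction, stood at 69.4 and 63.6 CPM for IGF2BP1, 42.3 and 29.5 for IgG, and 36.6 and 43.2 for input. IGF2BP1 RIP lay above both controls, which overlapped. The difference from IgG RIP was 0.89 ± 0.24 (edgeR adjusted p = 0.0723), and 1.17 and 0.65 as an IgG RIP library was left out. Over input it was 0.73 ± 0.16 with IGF2BP1 RIP and input alone (edgeR adjusted p = 0.00105). Elovl6, the elongase of saturated chains such as palmitate, had 133 and 145 CPM for IGF2BP1, 109.8 and 68.8 for IgG, and 113 and 184 for input. The input libraries enclosed those of IGF2BP1 RIP, which lay above IgG RIP by 0.64 ± 0.28 (edgeR adjusted p = 0.205). The value turned on 1 library: it was 1.01 without the IgG RIP library 1 and 0.34 without library 2.

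Elovl1, an elongase of very long chains, had 17.4 and 23.3 CPM for IGF2BP1, 12.4 and 16.8 for IgG, and 5.58 and 6.52 for input. Both pull-downs lay above input, IGF2BP1 RIP by 1.74 ± 0.34 with those groups alone (edgeR adjusted p = 3.83e-04, and 0.0656 with all libraries). Its span is shared with Cdc20 on the opposite strand, at 98.9 to 147 CPM, so the split of fragments between them is uncertain. The dehydratases, which remove water in the cycle, followed no common pattern. Hacd2 lay at 53.7 and 51.2 CPM in IGF2BP1 RIP, above 30.3 and 37.8 in IgG RIP and overlapping 53.3 and 38.5 in input, while Hacd3 (69.8 to 105 CPM) and Hacd1 (0 to 7.10 CPM) overlapped between the pull-downs.

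The desaturases passed no comparison with all 6 libraries. Scd2, a stearoyl-CoA desaturase that makes monounsaturated chains, had 239.7 and 246 CPM for IGF2BP1, 224 and 224 for IgG, and 289 and 246 for input. IgG RIP was lowest and IGF2BP1 RIP overlapped input, and the log2 fold changes were 0.12 ± 0.11 against IgG RIP and -0.14 ± 0.11 against input (edgeR adjusted p = 0.553 and 0.556). The former was 0.12 without either IgG RIP library. Its paralog Scd1 (48.0 to 71.8 CPM) overlapped between all groups, with -0.26 ± 0.23 against IgG RIP (edgeR adjusted p = 0.538). That value was -0.47 and -0.01 as an IgG RIP library was left out. Against input the log2 fold change of Scd1 was -0.20 ± 0.24 (edgeR adjusted p = 0.723). The division of fragments between these similar genes is uncertain. Fads1 and Fads2, the desaturases of polyunsaturated chains, were both higher in IGF2BP1 RIP than in input with those groups alone, by 0.42 ± 0.15 and 0.51 ± 0.17 (edgeR adjusted p = 0.0331 and 0.0214). Fads1 read 63.7 and 68.5 CPM for IGF2BP1, 48.5 and 34.4 for IgG, and 49.6 and 49.2 for input, whereas Fads2 read 56.2 and 53.3, 61.3 and 50.8, and 38.4 and 38.5. IgG RIP thus lay with or below input for Fads1 and with IGF2BP1 RIP for Fads2.

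The acyl-CoA synthetases, which activate fatty acids, differed in direction against input. Acsl3 (ENSMUSG00000032883, chromosome 1, 78657825 to 78706987) had 298 and 323 CPM for IGF2BP1, 231 and 166 for IgG, and 236 and 247 for input. The IGF2BP1 RIP libraries were the highest and did not overlap either control. Its log2 fold change over IgG RIP was 0.65 ± 0.16 (edgeR adjusted p = 0.0524, DESeq2 adjusted p = 0.0158) and over input 0.36 ± 0.16 (edgeR adjusted p = 0.249, and 8.30e-04 with those groups alone). Without the IgG RIP library 1 or 2 the first was 0.90 and 0.43. Its span is shared with Utp14b, which had 105 and 112 CPM for IGF2BP1, 182 and 147 for IgG, and 147 and 146 for input, the other way round.

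Acsl1 (ENSMUSG00000018796, chromosome 8, 46471041 to 46536051), a synthetase abundant in fat and liver, had 53.4 and 68.1 CPM for IGF2BP1, 42.7 and 34.0 for IgG, and 44.7 and 61.6 for input. IGF2BP1 RIP lay above IgG RIP and overlapped input. The differences, 0.66 ± 0.25 and 0.19 ± 0.26, did not pass (edgeR adjusted p = 0.160 and 0.759). The first was 0.84 and 0.51 as an IgG RIP library was left out. Acsl4, which prefers arachidonate, had 53.7 and 62.5 CPM for IGF2BP1, 49.7 and 79.6 for IgG, and 81.9 and 82.3 for input. It was lower in IGF2BP1 RIP than in input, at -0.50 ± 0.14 with those groups alone (edgeR adjusted p = 0.00693, and 0.324 with all libraries).

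Acsl5, a mitochondrial and endoplasmic reticulum synthetase, had 6.76 and 4.94 CPM for IGF2BP1, 16.3 and 23.5 for IgG, and 14.9 and 10.1 for input. Here the IGF2BP1 RIP libraries were the lowest, without overlap. The log2 fold change was -1.76 ± 0.46 against IgG RIP (edgeR adjusted p = 0.0662), the lowest of the 40 genes in that comparison. It was -2.0 and -1.47 as an IgG RIP library was left out. Against input it was -1.08 ± 0.40 with those groups alone (edgeR adjusted p = 0.0379, and 0.257 with all libraries). Its span is shared with Zdhhc6, which read 22.4 and 19.1 CPM for IGF2BP1, 0.776 and 22.1 for IgG, and 13.0 and 13.6 for input. Acsl6 had 3 and 3 fragments for IGF2BP1, 0 and 0 for IgG, and 1 and 2 for input.

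For oxidation, the gate is carnitine palmitoyltransferase on the outer mitochondrial membrane, encoded by Cpt1a. It had 97.1 and 116 CPM for IGF2BP1, 68.7 and 65.8 for IgG, and 64.5 and 69.9 for input. The controls overlapped and both IGF2BP1 RIP libraries lay above them. The log2 fold change was 0.66 ± 0.17 against IgG RIP (edgeR adjusted p = 0.0593), and 0.69 and 0.63 as an IgG RIP library was left out. Against input it was 0.66 ± 0.13 with those groups alone (edgeR adjusted p = 3.25e-04, and 0.0724 with all libraries). Cpt2 (ENSMUSG00000028607, chromosome 4, 107903981 to 107923610), which reverses the carnitine transfer inside, had 61.2 and 55.8 CPM for IGF2BP1, 52.4 and 55.7 for IgG, and 51.5 and 42.1 for input. Its groups lay close together, with 0.11 ± 0.20 against IgG RIP and 0.32 ± 0.21 against input (edgeR adjusted p = 0.774 and 0.455). The first was 0.07 and 0.16 as an IgG RIP library was left out.

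Acads (ENSMUSG00000029545, chromosome 5, 115110299 to 115119346), the short-chain acyl-CoA dehydrogenase, had the largest log2 fold change of the 40 genes over IgG RIP. It read 15.3 and 16.9 CPM for IGF2BP1, 3.88 and 1.5 for IgG, and 13.0 and 13.0 for input. The IgG RIP libraries, with 10 and 4 fragments, were low, and the other 4 lay close together. The difference from IgG RIP was 2.57 ± 0.57 (edgeR adjusted p = 0.0415, DESeq2 adjusted p = 0.0338, and 0.151 by edgeR with those groups alone), and the difference from input 0.31 ± 0.51 (edgeR adjusted p = 0.820). Leaving out the IgG RIP library 1 gave 3.39, and leaving out library 2 gave 2.04. IgG RIP differed from input by -2.26 ± 0.58 (edgeR adjusted p = 0.0545).

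The longer-chain dehydrogenases varied. Acadvl, for very long chains, had 38.8 and 33.9 CPM for IGF2BP1, 25.6 and 26.5 for IgG, and 19.2 and 17.8 for input. IGF2BP1 RIP lay above both, by 0.97 ± 0.23 over input with those groups alone (edgeR adjusted p = 0.00169, and 0.0901 with all libraries); its span is shared with Dvl2. Acadm and Acadl, for medium and long chains, had their highest library in input. Acadm read 47.7 and 54.0 CPM for IGF2BP1, 40.7 and 31.8 for IgG, and 52.7 and 56.9 for input, and Acadl 22.4 and 29.7, 24.1 and 13.5, and 40.9 and 30.8. Neither passed a comparison.

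Hadha (ENSMUSG00000025745, chromosome 5, 30103889 to 30155162), which carries hydratase and dehydrogenase activity for long chains, had 236 and 245 CPM for IGF2BP1, 136 and 175 for IgG, and 174 and 171 for input. The IGF2BP1 RIP libraries stood above the other 4, and the controls overlapped. It was higher than IgG RIP by 0.63 ± 0.14 (edgeR adjusted p = 0.0392, and 0.131 with those groups alone) and differed from input by 0.48 ± 0.14 (edgeR adjusted p = 0.0955, and 7.47e-05 with those groups alone). The first was 0.46 without the IgG RIP library 1 and 0.82 without library 2. Gareml, which shares its span, had 77.5 and 84.0 CPM for IGF2BP1, 83.8 and 123 for IgG, and 47.1 and 48.6 for input. Hadhb, the thiolase subunit of the same complex, had 45.9 and 38.8 CPM for IGF2BP1, 36.5 and 53.5 for IgG, and 34.1 and 40.3 for input. Its groups overlapped in every comparison, and the log2 fold change over IgG RIP was -0.09 ± 0.26 (edgeR adjusted p = 0.873). That value was -0.33 and 0.22 as an IgG RIP library was left out.

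Hsd17b4, the bifunctional enzyme of peroxisomal oxidation, had 92.5 and 95.0 CPM for IGF2BP1, 65.2 and 63.2 for IgG, and 69.5 and 69.9 for input. Replicates were tight in all 3 groups, with IGF2BP1 RIP above both controls. The difference from IgG RIP was 0.55 ± 0.16 (edgeR adjusted p = 0.0814), and 0.57 and 0.52 as an IgG RIP library was left out. Over input it was 0.43 ± 0.12 with those groups alone (edgeR adjusted p = 0.00960, and 0.179 with all libraries). Acox3, a peroxisomal oxidase, read 12.1 and 11.7 CPM for IGF2BP1, 1.55 and 5.61 for IgG, and 11.2 and 8.88 for input. Ehhadh, the other peroxisomal bifunctional enzyme, had 6 and 8 fragments for IGF2BP1, 0 and 0 for IgG, and 0 and 3 for input, too few to test.

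Of the thiolases, Acat2, which joins acetyl-CoA in the cytosol, had 49.8 and 73.1 CPM for IGF2BP1, 56.3 and 53.8 for IgG, and 37.8 and 37.9 for input. Both pull-downs exceeded input, IGF2BP1 RIP by 0.70 ± 0.19 with those groups alone (edgeR adjusted p = 0.00605, and 0.156 with all libraries). Its mitochondrial counterpart Acat1 had 84.6 and 44.5 CPM in IgG RIP, which enclosed the 56.9 and 65.0 CPM of IGF2BP1 RIP, and input lay at 50.2 and 42.1 CPM. Acaa2 and Acaa1a, thiolases of mitochondria and of peroxisomes, had 12.0 to 24.5 and 0 to 13.0 CPM. Neither passed, and Acaa1a shares its span with Myd88, Xylb and Oxsr1.

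The remaining oxidation genes had few fragments and passed no comparison. Echs1, the short-chain hydratase, read 15.3 and 16.9 CPM for IGF2BP1, 8.92 and 6.35 for IgG, and 10.5 and 19.5 for input. Hadh, the short-chain hydroxyacyl dehydrogenase, read 11.7 and 12.7, 0.776 and 9.72, and 19.2 and 14.2 CPM. In both, IGF2BP1 RIP lay above IgG RIP with no overlap. The isomerases of unsaturated chains, Eci1 (1.24 to 5.98 CPM) and Eci2 (10.9 to 29.9 CPM), overlapped between the pull-downs.

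The median fold change of all genes differed by transcript length, so the lengths of these genes are given beside their values. Relative length was gauged by the ratio of deposited count to FPKM. With all genes split by length into 10 equal classes, in the longest class the median log2 fold change was -0.23 for IGF2BP1 RIP over IgG RIP, 0.02 for IGF2BP1 RIP over input and 0.24 for IgG RIP over input. In the shortest class it was -0.14, -0.53 and -0.37. Fasn and Acacb lay in the longest class, at percentiles 96.0 and 92.7, and Acaca in the class next to it, at percentile 86.2, where the medians were -0.07, 0.10 and 0.13. The log2 fold changes of IgG RIP over input for Fasn, Acaca and Acacb, 0.82, 0.84 and 1.12, were larger than these medians. Scd2, Elovl6, Scd1 and Acsl4 were also long, at percentiles 90.9, 92.8, 87.1 and 89.1, and none of them passed for IgG RIP against input. Acads and Tecr were short, at percentiles 11.3 and 11.9. The part of length in the differences was not tested.

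**Figure D5:**
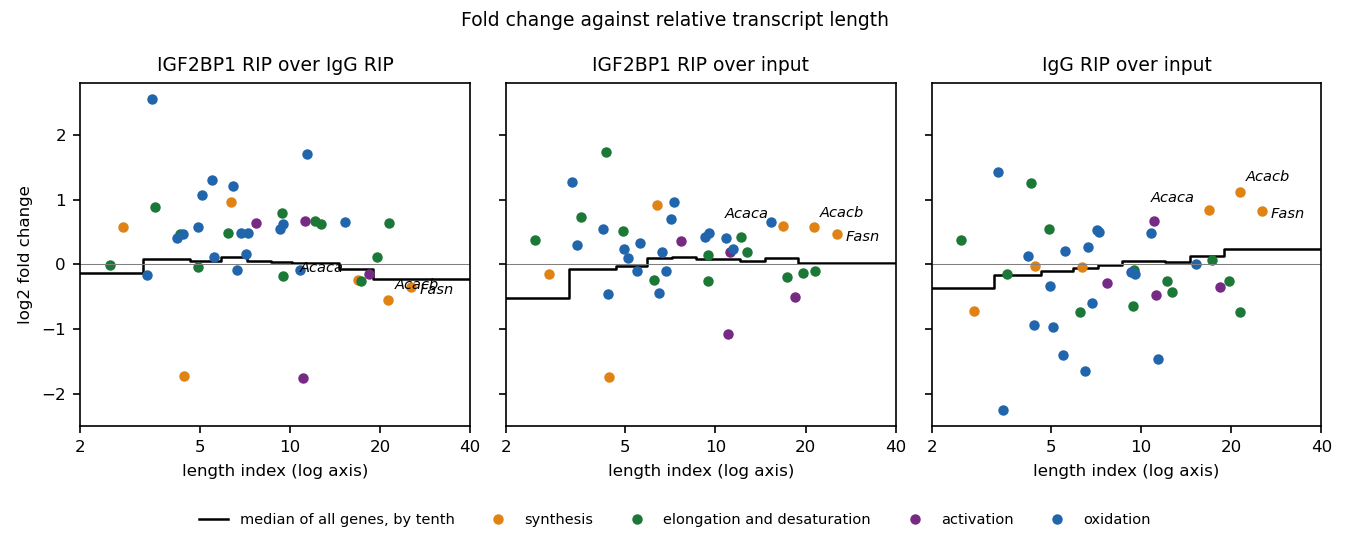
Log2 fold change (y axis) against the relative transcript length (deposited count over FPKM, log axis) of the tested fatty acid genes, coloured by role, with a line for the median of all genes in each of 10 length classes. Fasn, Acaca and Acacb lie below the line in the first panel and above it in the other panels, where IgG RIP over input reaches 1.12.

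Genes around the same pathway were counted for comparison, in lists that hold none of the 43. Over all genes, 3.29% passed higher and 3.78% lower against IgG RIP, and 2.21% and 3.76% against input. Of 17 tested regulators and carbon suppliers, 0 passed against IgG RIP by edgeR (1 higher and 0 lower at an unadjusted p under 0.05, 0 by DESeq2) and 1 was lower than input. That was Insig1, which holds the SREBP regulators of lipid synthesis in the endoplasmic reticulum, with 364 and 355 CPM for IGF2BP1, 307 and 325 for IgG, and 502 and 484 for input. Input was highest by a wide margin, and the log2 fold change of IGF2BP1 RIP over it was -0.45 ± 0.08 (edgeR adjusted p = 0.0241). The list as a whole leaned the other way, with a median log2 fold change over input of 0.38 and 12 of the 17 above 0. At an unadjusted p under 0.05, 4 were higher and 2 lower than input, against 9.67% and 11.1% of all genes. With IGF2BP1 RIP and input alone, edgeR called 8 higher and 2 lower, against 16.1% and 17.8% of all genes. Of 8 tested further elongases and desaturase partners, 1 was higher than in IgG RIP: Cyb5r3, the reductase that feeds electrons to desaturases by way of cytochrome b5. It had 312 and 302 CPM for IGF2BP1, 147 and 210 for IgG, and 221 and 240 for input. The difference from IgG RIP was 0.78 ± 0.16 (edgeR adjusted p = 0.0350), a call lost with those groups alone (edgeR adjusted p = 0.119). That difference was 0.55 and 1.07 as an IgG RIP library was left out.

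Of 20 tested uptake and activation genes, 1 was higher than in IgG RIP and 1 lower, and 1 was lower than in input. At an unadjusted p under 0.05, 5 were higher and 2 lower than in IgG RIP, against 12.3% and 13% of all genes. For input these were 0 and 6, against 9.67% and 11.1%. DESeq2 called 2 higher and 1 lower than in IgG RIP, and 0 and 1 for input. With IGF2BP1 RIP and input alone, edgeR called 2 higher and 9 lower, against 16.1% and 17.8% of all genes. Cd36, a fatty acid receptor and transporter that macrophages also carry, had 77.5 and 85.8 CPM for IGF2BP1, 178 and 188 for IgG, and 109.8 and 129.7 for input. IGF2BP1 RIP was the lowest group, at -1.16 ± 0.14 against IgG RIP (edgeR adjusted p = 0.00595, and 0.0352 with those groups alone), and at -1.20 and -1.12 as an IgG RIP library was left out. Acbd3, an acyl-CoA-binding-domain protein of the Golgi, was higher than in IgG RIP by 0.51 ± 0.10 (edgeR adjusted p = 0.0310), at 240 and 256 CPM against 183 and 164, and below the 296 and 288 CPM of input. That call was lost with those groups alone (edgeR adjusted p = 0.121), and the value was 0.59 and 0.44 as an IgG RIP library was left out. Dbi, the acyl-CoA-binding protein, was lower than in input, at -1.27 ± 0.23 (edgeR adjusted p = 0.0222), at 34.1 and 25.8 CPM against 74.4 and 70.5, with 48.1 and 55.7 in IgG RIP.

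None of the 27 tested further genes of the carnitine shuttle and of oxidation passed against IgG RIP by edgeR (3 higher and 0 lower at an unadjusted p under 0.05, 0 by DESeq2), nor did any against input (1 and 0, 0 by DESeq2). The same held for 7 further genes of mitochondrial synthesis and lipoic acid against IgG RIP (0 at an unadjusted p under 0.05, 0 by DESeq2) and input (0 higher and 2 lower, 0 by DESeq2). Of 19 genes of triglyceride and phospholipid entry, 1 was higher than in IgG RIP: Lpin2, a phosphatidate phosphatase, at 179 and 193 CPM against 136 and 132, with 149 and 142 in input. The log2 fold change was 0.47 ± 0.11 (edgeR adjusted p = 0.0499), a call lost with those groups alone (edgeR adjusted p = 0.152), and 0.49 and 0.45 as an IgG RIP library was left out. DESeq2 gave an adjusted p of 0.173, and the locus span of Lpin2 is shared with another gene. At an unadjusted p under 0.05, 4 of the 19 were higher and 1 lower than in IgG RIP, against 12.3% and 13% of all genes. Against input 0 passed with all libraries, and unadjusted 3 were higher and 0 lower, against 9.67% and 11.1%. DESeq2 called 0 in either comparison. With IGF2BP1 RIP and input alone, edgeR called 5 higher and 2 lower, against 16.1% and 17.8% of all genes.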

How the data were processed

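RIP-seq libraries of 3 groups (IGF2BP1 RIP, IgG RIP, input), 2 each, were grouped by their labels. The deposited estimated counts are fragments per gene times 1 factor per library: 92.8% to 94.4% of values were whole multiples of a step of 0.954 to 1.03, within a tolerance of 0.01. Dividing by the step and rounding gave fragments. The FPKM values deposited by the authors total 252152 to 423117 per library and rise with depth. Build mm39, cutadapt 1.9.3 and FastQC are named per the submitters' processing notes, but 99.909% of 20874 matched genes overlap their GRCm38 positions, so coordinates (1-based, locus spans only) are read as GRCm38. Which aligner and counter were used is not given in the sources used here. Library depth was 1639251 to 2836942 fragments, and counting error is only part of the spread. In the table, 5875 genes share a span with another gene.

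All genes were fitted with edgeR 4.0.16 in R 4.3.3 (filterByExpr, TMM, quasi-likelihood test, 1 term per group, all 6 libraries), with Benjamini-Hochberg adjustment over 12053 genes and calls at 0.05. CPM are after TMM, and errors are the SD over 2 libraries or the SE of the log2 fold change. Tested alternatives were other scalings, filters and counts, a replicate block, the 2 groups alone and each library left out. A group left with 1 library is assumed to vary like the others, which did not hold for IgG RIP. Further alternatives were DESeq2 1.42.0, and limma 3.58.1 on log2 of the deposited FPKM plus 1 or 0.1, each library centred on its median. Scripts were tested on simulated data with 1 spread for all groups. The IgG RIP libraries varied more than the other groups, so that run does not bear on comparisons with IgG RIP. Full statistics are given for members called in any comparison and for the 2 of highest input FPKM in each role; other members are given by values and counts, and other pathway genes were named where called against IgG RIP or input. The members and lists were chosen with earlier results of these data known. No sequence is printed, since transcripts were not analysed here. Hsd17b8 of the pathway lists was not matched.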

Additional observations from a re-analysis of the deposited data

How the results depend on the processing

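Of the 40 tested genes, those higher for IGF2BP1 RIP against IgG RIP numbered 4 under the settings of the report, 2 with no filter on low counts and 0 with the 2 groups alone. They were also 0 by limma on centred log2(FPKM + 1) and on log2(FPKM + 0.1), and 0 to 16 as each library was left out, with 0 to 7 lower. The median log2 fold change was 0.51 with no filter, 0.59 and 0.64 on the FPKM settings, and 0.45 to 0.48 with a library left out. Against input, 13 were higher and 4 lower with the 2 groups alone, where 16.1% and 17.8% of all genes were. On either FPKM setting 0 were higher. Without the members that share a locus span, a setting chosen after seeing the data, 1 was higher. That setting recounts the same fit and only leaves Acaca out of the count, so it does not bear on how firm the calls are. Leaving out a library gave a median of 0.25 to 0.41, and FPKM + 1 gave a median of 0.18. For IgG RIP against input, the lower calls were 0 with the controls alone, where 0.946% of all genes were lower. Both directions were 0 on either FPKM setting, with medians of -0.29 and -0.34. Without the members that share a span the median was -0.20. With a library left out the median ran from -0.208 to -0.070. Same-numbered libraries did not deviate together from their group means (correlations of -0.0042, 0.0034 and 0.0087). Whether they share a culture or a preparation is not labelled. The replicate block left 2 calls higher than IgG RIP, 0 higher than input, and 2 higher and 2 lower between the controls. Of the 40 tested genes, 12 over IgG RIP, 8 over input and 12 between the controls changed direction under at least 1 alternative, and 0 of these were called in that comparison with all 6 libraries by edgeR. They included Oxsm (-2.69 to 2.35), Mecr (-0.42 to 6.69), Acsl4 (-0.45 to 0.23), Acat1 (-0.47 to 0.45) and Hacd3 (-0.44 to 0.15) over IgG RIP. Of those with a printed fold change, Cpt2 over IgG RIP was -0.02 on both FPKM settings (-0.018 and -0.020), Acsl1 over input ran from -0.020 to 0.44, Hadha for IgG RIP over input from -0.34 to 0.036, and Hadhb over IgG RIP from -0.33 to 0.22 with a library left out. The causes were not tested. Of the values of the genes whose fold changes are printed, 823 kept direction and side of the threshold, 121 lost a call, 85 gained one and 6 changed direction. The setting of at least 1 CPM in at least 4 libraries, planned as the stricter filter, kept more genes than the filter used. Depth limits the genes of few fragments, such as Mecr, Oxsm, Hacd1, Eci1, Acads and the 3 untested genes.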

Other observations

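Some fatty acid genes differed strongly between the 2 IgG RIP libraries. Gaps here are on log2(CPM + 1), since genes at 0 in a library have no finite gap without the added 1. On this scale Oxsm was 3.45 apart in IgG RIP, the widest of the 40 tested genes, at 14.0 and 0.374 CPM. Hadh, which encodes the short-chain hydroxyacyl dehydrogenase, had 0.776 and 9.72 CPM there, and Acaa1a, the peroxisomal thiolase, had 0 and 7.48. In IGF2BP1 RIP the widest gap on this scale was 0.784, in Eci1. The 40 genes had a median gap of 0.460 for IgG, 0.186 for IGF2BP1 and 0.202 for input, near the 0.502, 0.166 and 0.188 of all genes tested.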
